A study of Squalius alburnoides and Squalius pyrenaicus with 4 samples.

Results

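Probes for miRNAs that are known from neurons were followed across the *Squalius alburnoides* complex, a group of Iberian freshwater fish of hybrid origin. The probes were those named for zebrafish miRNAs (dre-miR-132, dre-miR-138, dre-miR-218a, dre-miR-218b, dre-miR-219 and dre-miR-129, without star forms), chosen by name, and they are 6 of the 218 zebrafish probes on a multi-species chip. Adult fish of 4 genomic compositions were compared. PAA is a triploid hybrid, PA a diploid one with a genome of each kind, AA a diploid form of the complex without the P genome, and PP the parental species *S. pyrenaicus*, whose genome is called P, while A names the genome of an extinct paternal ancestor. Per the study's methods, *S. alburnoides* came from one river and *S. pyrenaicus* from a second river. The study describes AA fish in general as males and PAA fish as mainly females, and the sex of the sampled fish was not given in the sources used here. Total RNA of liver, brain and muscle from about 3 individuals was pooled for each composition, labelled with Cy3 and hybridized to 1 array, so each composition had 1 array and no test between compositions was possible.

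A miRNA is a short RNA that guides a protein complex to partly matching messenger RNAs and lowers their output. In mammals miR-132 is transcribed when active neurons switch on the factor CREB, and it promotes the growth of dendrites, while miR-138 is enriched at synapses and limits the size of dendritic spines. Vertebrate motor neurons are rich in miR-218, which lies within introns of the Slit genes, and miR-219 drives the maturation of oligodendrocytes, the cells that make myelin. In rodent neurons miR-129 represses a potassium channel in dendrites. The mature sequences of these miRNAs and of the probes were not used here.

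The values are the scanner's spot intensities. Each probe was printed in 4 spots, the signal of a spot is its foreground minus its local background, and a probe was called detected where at least 2 kept spots had a foreground of at least 2 times the background. Levels and log2 differences between arrays rest on quantile normalization over the zebrafish probes, and a difference was called beyond 2-fold where it reached 1 on the log2 scale. The SE given with a difference comes from the spots of 1 probe, so it covers the spread within an array and not that between fish or pools. The arrays detected 154 to 168 zebrafish probes, and 114 were detected on all 4. PAA and PA shared one slide and AA and PP shared a second one, so a difference of hybrid from non-hybrid forms and one of slides cannot be told apart, nor can river and genome in comparisons with PP. The upper array of the slides was PAA on one and AA on the second, and the lower arrays were PA and PP, so a difference of PAA from PA cannot be told apart from one of position, and the same holds for AA and PP. In pooled tissue a smaller share of cells of a type and less miRNA per cell cannot be told apart either.

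The nervous-system part of the pools was looked at through 12 other probes for nervous-system miRNAs. miR-9, which is made by neural progenitors and neurons, gave a signal, before normalization, of 4010 (PAA), 4026 (PA), 2089 (AA) and 3375 (PP). These values lay above the BLANK level of each array, which is the 95th percentile of the signal of spots labelled BLANK and was 103 (PAA), 209 (PA), 203 (AA) and 516 (PP). miR-124, the most typical miRNA of neurons, was dim, with a signal of 190 on PAA, 244 on PA and 278 on PP, the last of them under the BLANK level, and it was not detected on AA. miR-128, a forebrain miRNA in mammals, was not detected on PAA or PA, and its signal of 137 on AA and 126 on PP did not reach the BLANK level. Summed over the detected probes, the 12 probes gave 7642 (PAA), 7157 (PA), 5907 (AA) and 6446 (PP), and 11, 5, 3 and 2 of them were above the BLANK level in that order of arrays. These counts depend on that level, which differed more between arrays than the median BLANK signal of 41.5, 38, 36 and 49. miR-338, for example, was above the level at 136 on PAA and not at 275 on PP. Over the 4 liver probes the sums were 27529, 25407, 21708 and 22745, and over the 6 muscle probes 2153, 1471, 1140 and 992, again for PAA, PA, AA and PP. Most of each liver sum came from miR-192, at 27142 on PAA and 21854 on PP, while miR-122 gave 259 and 164 there. Most of each nervous-system sum came from miR-9 and miR-153c, the only probes of the 12 above the BLANK level on every array. Of these miR-153c gave 1845 (PAA), 1643 (PA), 2552 (AA) and 972 (PP). The sums of all 3 lists were highest on PAA, before any scaling between arrays. So was the summed signal of all detected zebrafish probes, at 162967 (PAA), 153618 (PA), 152942 (AA) and 147505 (PP). The part of tissue proportions in the results that follow was not tested.

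Among the 6 probes, miR-132, miR-138, miR-218a and miR-219 were detected with all 4 spots on all 4 arrays and above the BLANK level, by the least for miR-219 on PP at 1.65 times that level. miR-218b was detected on PAA, PA and AA near the BLANK level, and miR-129 on PAA alone. The plot of every spot shows this division.

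**Figure D1:**
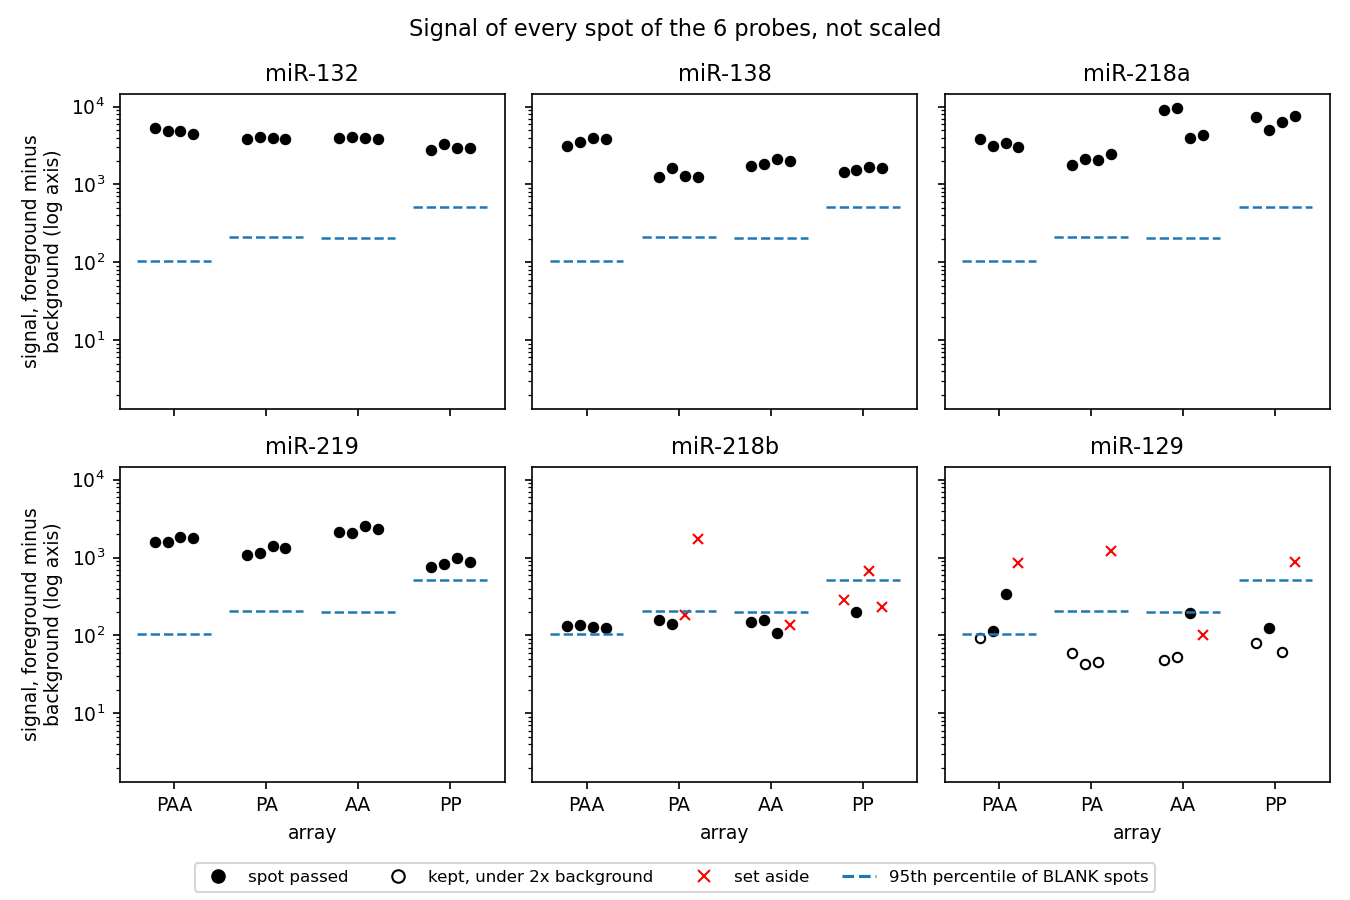
Signal of each of the 4 spots of the 6 probes on the PAA, PA, AA and PP arrays (foreground minus background, log axis, not scaled between arrays), with spots that passed filled, kept spots under 2 times background open, set-aside spots as crosses and the BLANK level dashed. The spots of miR-132, miR-138, miR-218a and miR-219 all passed. Kept spots of miR-218b and miR-129 lie under the BLANK level on PA, AA and PP, and on PAA between 92 and 339, where that level is 103. Some of their set-aside spots lie well above it, up to 1725 for miR-218b on PA.

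miR-138, the synaptic miRNA that limits spine size, was highest on the triploid hybrid. Its 4 spots gave 3118, 3525, 3886 and 3797 on PAA. On PA they gave 1245, 1617, 1264 and 1227. On AA they gave 1712, 1838, 2120 and 2000, and on PP 1439, 1542, 1667 and 1616. Every PAA spot was higher than every spot of the other arrays, while the spots of PA, AA and PP together ran from 1227 to 2120. The direction of PAA against each of the other arrays held under every alternative, all of which used this same probe. A probe named for mouse miR-138, described below, was detected on PA and PP and not on PAA or AA. No order of the arrays was read from the mouse-named probe.

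After normalization miR-138 stood at 3556 on PAA, against 1240 on PA, 1673 on AA and 1701 on PP. PAA exceeded PA by 1.52 ± 0.12 on the log2 scale (SE over 4 spots each), a fold of 2.87 and the highest of the 147 probes measured on both arrays. PAA and PA were hybridized on the same slide. Of all zebrafish probes 3.4% were beyond 2-fold between PAA and PA in either direction, and miR-138 was the only one of the 5 members measured there that was, while 4 of the 5 had spots that did not overlap, against 31.3% of all probes. PAA also exceeded AA by 1.09 ± 0.10 and PP by 1.06 ± 0.09. PA was lower than AA by a log2 difference of -0.43 ± 0.12 with overlapping spots, and lower than PP by one of -0.46 ± 0.11 with spots that did not overlap. AA and PP differed by -0.02 ± 0.08, with overlapping spots.

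The excess of PAA over PA in miR-138 was beyond 2-fold under each of the 13 alternative ways of processing. It ran from 1.04 with scaling on the spots labelled Homo to 1.96 with the spots of subarray rows 4 to 6 only. The Homo scaling rested on the 12 of 40 Homo spots that passed on all arrays. The excess over AA fell below 2-fold under 7 of the 13 alternatives and was 0.26 at the lowest, with median scaling. That over PP did so under 4 and was 0.64 at the lowest, with the Homo scaling. The local background of the first pair of miR-138 spots on PA was 323 and 324, against 88 and 90 for the second pair.

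miR-132, the activity-induced miRNA, was highest on PAA and lowest on PP in spot signal. Its spots gave 5285, 4914, 4869 and 4465 on PAA. On PA they gave 3847, 4092, 3979 and 3776, on AA 3914, 4088, 3937 and 3851, and on PP 2798, 3336, 2894 and 2973. PAA was thus highest in every spot and PP lowest in every spot, while the spots of PA and AA covered the same range before scaling.

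The normalized intensity of miR-132 was 5943 (PAA), 4155 (PA), 3710 (AA) and 2725 (PP). PAA exceeded PP by 1.13 ± 0.07 on the log2 scale, or 2.18-fold, in a comparison where 29.9% of all zebrafish probes were beyond 2-fold. The other differences were within 2-fold. PAA exceeded PA by 0.52 ± 0.06 and AA by 0.68 ± 0.05, PA exceeded PP by 0.61 ± 0.06, and AA exceeded PP by 0.45 ± 0.06. PA and AA were the neighbours that stood closest, 0.16 ± 0.03 apart, with PA higher after quantile normalization and lower under 8 of the 13 alternatives. The size of these values depended on the scaling, and PAA against PP was beyond 2-fold under 6 of the 13 alternatives. It was 0.70 with no scaling, 0.56 with scaling to the total signal and 0.16 with the Homo scaling. The Homo scaling also put PAA below PA by a log2 difference of -0.07 and below AA by one of -0.18, and median scaling put it below AA by one of -0.33. The probe carries the names of 9 species, and miR-212, which is made from the same transcript as miR-132 in vertebrates, gave a signal of 166 (PAA), 151 (PA), 132 (AA) and 121 (PP) before normalization. On PAA alone was miR-212 above the BLANK level.

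miR-218a, known from motor neurons, was lower on both hybrids than on both non-hybrid forms, under the main processing and all alternatives. All of these start from the same spot foregrounds, so they do not bear on the pixel spread described below. The hybrids shared one slide and the non-hybrid forms a second one, so form and slide cannot be told apart here. The probe named for human miR-218, described below, was dim, and its spots overlapped between all arrays. The spots of the miR-218a probe gave 3849, 3154, 3354 and 3044 on PAA. On PA they gave 1770, 2106, 2045 and 2481. On AA they gave 8927, 9625, 3926 and 4341, and on PP 7283, 5070, 6370 and 7541. The PA spots were below those of every other array, and before scaling the PAA spots were below all those of AA and PP.

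**Figure D2:**
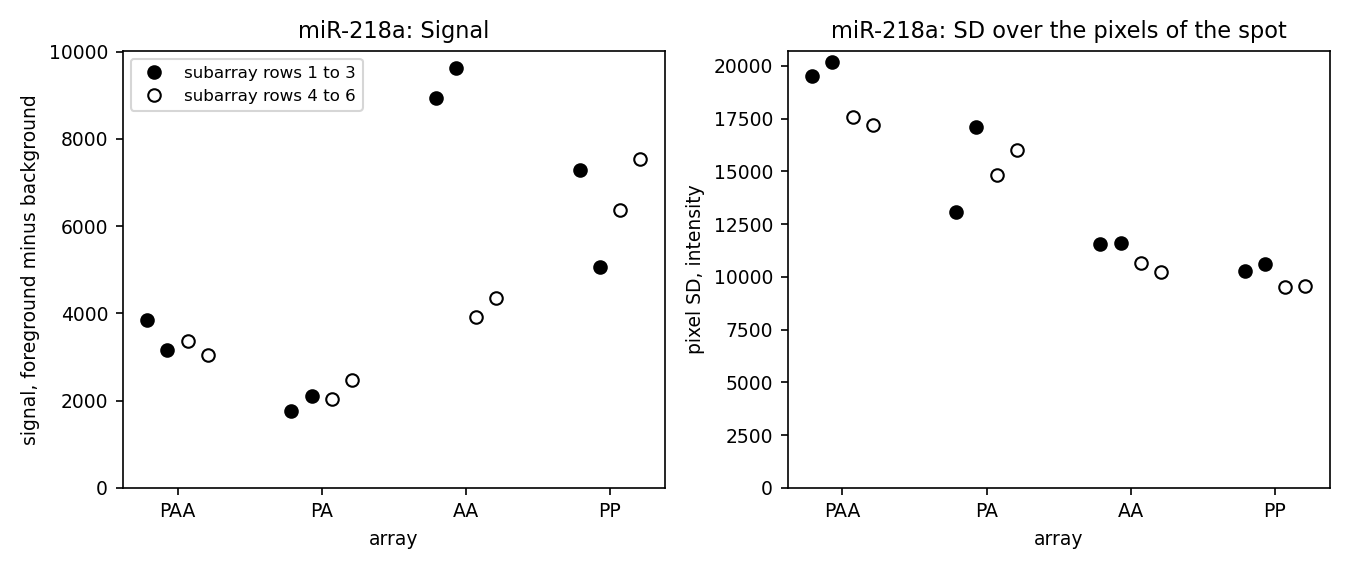
Signal of the 4 miR-218a spots on the PAA, PA, AA and PP arrays (left, foreground minus background) and the standard deviation over the pixels of the same spots (right), both in intensity units on linear axes, filled for subarray rows 1 to 3 and open for rows 4 to 6. Signal was higher on AA and PP, the pixel SD higher on PAA and PA, and the AA spots split into a pair near 9276 and a pair near 4134.

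Normalized, miR-218a stood at 3236 (PAA), 2096 (PA), 4778 (AA) and 5592 (PP). PA was lower than PP by a log2 difference of -1.42 ± 0.16, a 2.67-fold excess of PP, where 25.2% of all probes were beyond 2-fold. PA was lower than AA by a log2 difference of -1.19 ± 0.35, where 9.77% of all probes were beyond 2-fold. PAA was lower than PP by a log2 difference of -0.79 ± 0.15 and lower than AA by one of -0.56 ± 0.35, the last with overlapping spots after normalization. Within slides, PAA exceeded PA by 0.63 ± 0.12, and AA and PP differed by -0.23 ± 0.36 with overlapping spots. PA below PP held beyond 2-fold under all 13 alternatives, from -1.80 to -1.21, and PA below AA under 12 of them.

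The spots of miR-218a were uneven. On AA the pair in subarray rows 1 to 3 averaged 9276 and the pair in rows 4 to 6 averaged 4134, and with the spots of rows 4 to 6 alone PA was lower than AA by a log2 difference of -0.72, with those of rows 1 to 3 alone by one of -1.56. The standard deviation over the pixels of a miR-218a spot was 5.29 (PAA), 6.91 (PA), 1.79 (AA) and 1.44 (PP) times its foreground, where the median over bright zebrafish probes was 0.43, 0.40, 0.44 and 0.39. The pixel SD itself ran from 17206 to 20189 on PAA, from 13066 to 17125 on PA, from 10217 to 11614 on AA and from 9538 to 10589 on PP. Both hybrids thus had less signal and a greater pixel SD than AA and PP, while between the hybrids PAA had more of both. The other 3 bright members had ratios of 0.28 to 0.54. The study's methods describe the spot values as median pixel intensities, and every alternative used these same values. The part of this unevenness in the differences of miR-218a was not tested.

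For miR-219, the oligodendrocyte miRNA, the zebrafish probe was highest on AA, under the main processing and all alternatives. The miR-219 probes named for human and fly, described below, had AA below PAA and PA. Spots of the zebrafish probe gave 1589, 1591, 1831 and 1768 on PAA. On PA they gave 1091, 1148, 1408 and 1316, on AA 2125, 2061, 2516 and 2295, and on PP 754, 819, 975 and 877. Before scaling no spot of one array lay within the range of a second array, in the order AA, PAA, PA and PP.

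The normalized values of miR-219 were 1504 (PAA), 1182 (PA), 1998 (AA) and 1136 (PP), and all 6 differences were within 2-fold. PAA exceeded PA by 0.35 ± 0.10 and PP by 0.40 ± 0.09, and was lower than AA by a log2 difference of -0.41 ± 0.08. PA was lower than AA by a log2 difference of -0.76 ± 0.11 and differed from PP by 0.06 ± 0.12, with overlapping spots. AA exceeded PP by 0.81 ± 0.10 within their slide. That last value was larger, and beyond 2-fold, under 8 of the 13 alternatives, with 1.40 under no scaling and 1.82 under median scaling.

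miR-218b, a second zebrafish miR-218, gave a low signal. Its 4 spots on PAA gave 132, 136, 127 and 123. On PA the 2 kept spots gave 160 and 142, on AA the 3 kept spots gave 147, 158 and 106, and on PP only 1 spot was kept, so the level there was taken as not measured. The normalized intensity was 130 on PAA, 138 on PA and 157 on AA, the differences were -0.09 ± 0.09 for PAA against PA, -0.27 ± 0.18 for PAA against AA and -0.18 ± 0.20 for PA against AA, and the spots overlapped in each. The signal was above the BLANK level on PAA only, at 1.25 times that level. Before scaling it was nevertheless lowest on PAA, at 129, against 151 on PA and 135 on AA. The BLANK level was 103 on PAA, 209 on PA and 203 on AA, so the call rests on that level.

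miR-129 was called detected on PAA from 2 passing spots of 113 and 339, with an SD of 1.12 on the log2 scale where the median over zebrafish probes was 0.17. The remaining kept spot on PAA gave 92 and was under 2 times background. On PA the 3 kept spots gave 59, 43 and 46, and none passed. On AA they gave 49, 53 and 197 and on PP 79, 124 and 61, with 1 passing spot each. The signal of 196 on PAA did not exceed the BLANK level of PA, AA or PP, and the passing spot on AA was as bright, so no fold is given.

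Counted together, the members gave 27 differences between arrays, of which 6 were beyond 2-fold, and in 19 the spots did not overlap after normalization. Between PAA and PA, 1 of 5 members was beyond 2-fold, as given above. Between PAA and AA it was 1 of 5, against 12.1% of all zebrafish probes, and 3 of 5 had spots that did not overlap, against 49.3%. Between PAA and PP it was 2 of 4, against 29.9%, and 4 of 4 did not overlap, against 50.4%. Between PA and AA it was 1 of 5, against 9.77%, and 3 of 5, against 47.4%. Between PA and PP it was 1 of 4, against 25.2%, and 3 of 4, against 38.9%. Between AA and PP it was 0 of 4, against 24.6%, and 2 of 4, against 47.7%. No test of these shares was made. The median difference of the members was 0.52 for PAA against PA, where that of all zebrafish probes was 0.02, and 0.73 for PAA against PP, where that of all probes was 0.09. For PAA against AA it was -0.27 (0.12 over all probes), and for PA against AA -0.43 (0.01). The median was -0.20 with PA against PP (0.02), and 0.21 with AA against PP (0.01). For PAA against AA that median is the value of miR-218b, which was below the BLANK level on AA. The comparisons share arrays, so these medians are not independent of each other.

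**Figure D3:**
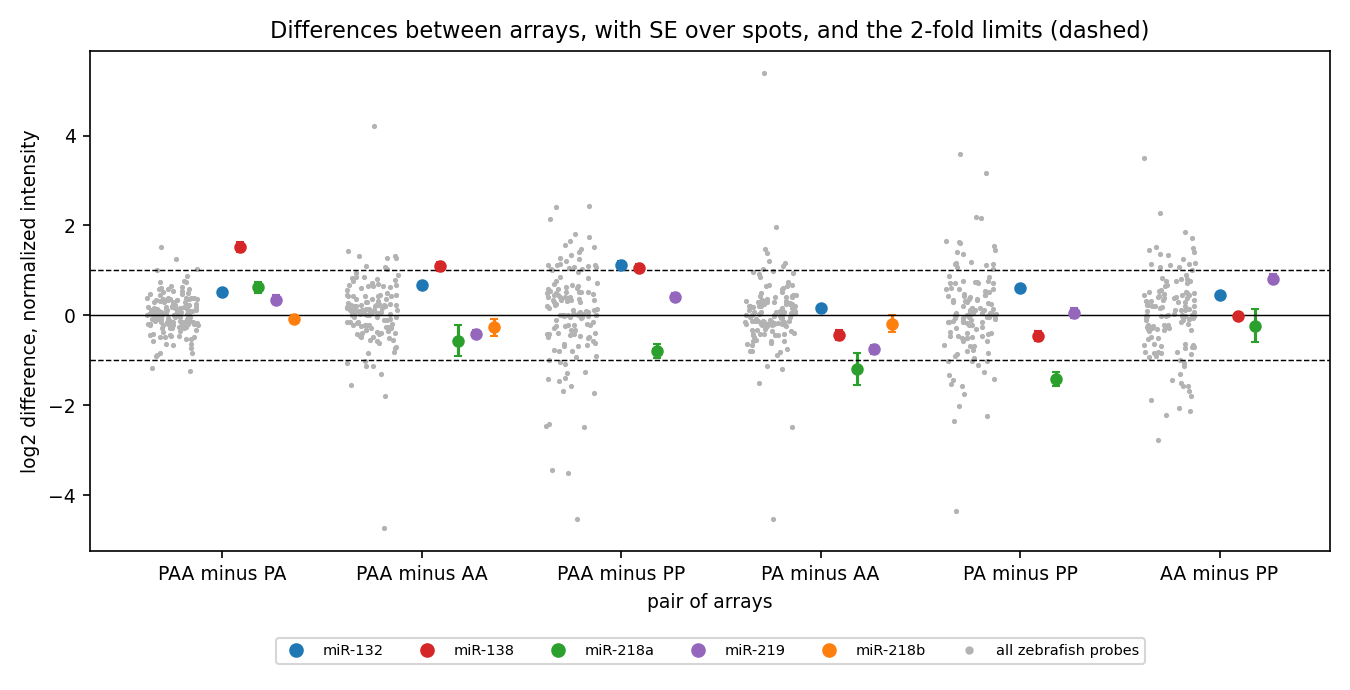
Log2 difference in normalized intensity of each measured member for the 6 pairs of arrays (coloured points, bars are the SE over spots) beside all zebrafish probes (grey), with dashed lines at 2-fold. miR-138 is the highest point of PAA minus PA at 1.52, and miR-218a is the lowest member in the pairs PA minus AA and PA minus PP, at -1.19 and -1.42.

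The distance between the highest and the lowest array was 1.52 on the log2 scale for miR-138, 1.42 for miR-218a, 1.13 for miR-132 and 0.81 for miR-219. The median over the 114 probes detected on all arrays was 0.77. A smaller distance was found for 82.5% of them than for miR-138, for 78.1% than for miR-218a, for 65.8% than for miR-132 and for 53.5% than for miR-219.

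In order to set the hybrids against their parental genomes, signals scaled to the total of each array were compared with an additive expectation, the mean of AA and PP for PA and the mean of 2 parts AA and 1 part PP for PAA. In the triploid hybrid, miR-138 had 3376 where 1829 was expected, 0.88 above on the log2 scale, and miR-132 had 4611 where 3695 was expected, 0.32 above. miR-218a on PAA had 3156 where 6418 was expected, a log2 ratio of -1.02, and miR-219 had 1600 where 1804 was expected, a ratio of -0.17. So 2 of the 4 members were above and 2 below, where 58.1% of all probes were above. miR-138 and miR-132 on PAA exceeded both AA and PP, miR-218a was under both, and miR-219 lay between them.

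In the diploid hybrid, miR-218a had 2093 where 6509 was expected, a log2 ratio of -1.64 that ranked 3 from the lowest among 116 probes. miR-138 had 1334 where 1780 was expected, a ratio of -0.42, and lay under both AA and PP. miR-219 had 1239 where 1576 was expected, a ratio of -0.35, and miR-132 had 3935 where 3553 was expected, a ratio of 0.15, both between AA and PP. Only miR-132 was above the expectation, 1 of 4, where 62.9% of all probes were above. miR-138 was thus above the expectation on PAA and below it on PA under all 12 alternatives, and miR-218a was below it on both, while miR-132 changed sides under 2 alternatives on each. A ratio beyond 2-fold was seen for 1 member in each hybrid, miR-218a, against 10.5% of all probes on PAA and 12.1% on PA. On PAA that call was lost under 4 of the 12 alternatives. With quantile normalization the ratio of miR-218a on PAA was -0.64, and miR-138 was the member beyond 2-fold, at 1.08. Any difference between a hybrid and the expectation also spans the 2 slides.

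**Figure D4:**
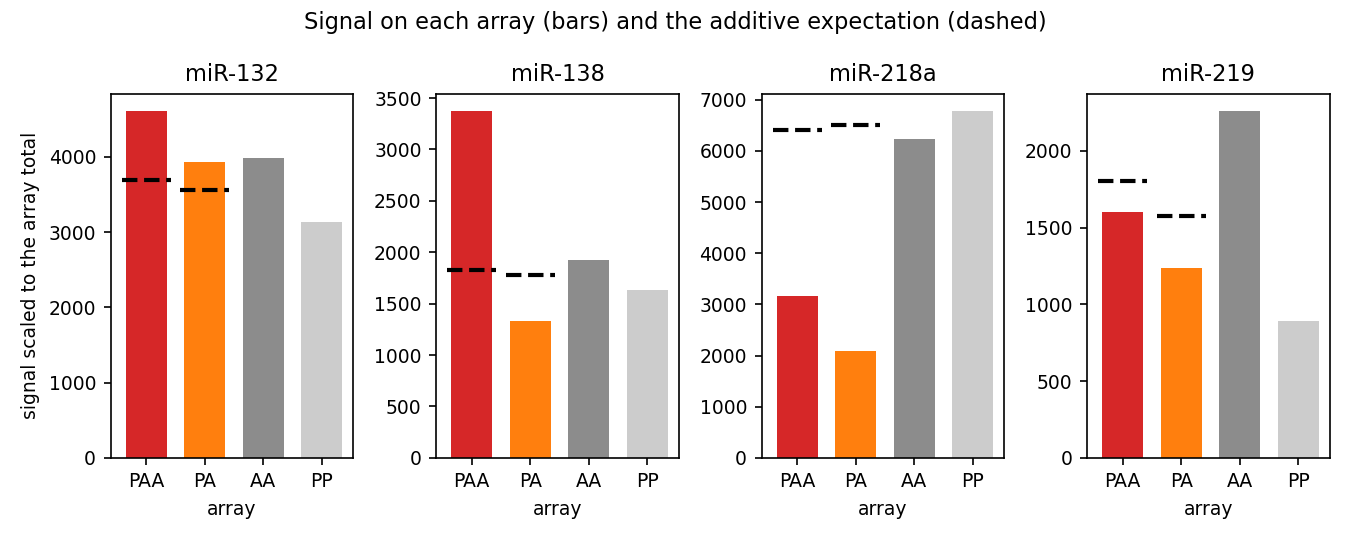
Signal of miR-132, miR-138, miR-218a and miR-219 scaled to the total of each array (bars, linear axis from 0, 1 array each, no error bar) on PAA, PA, AA and PP, with the additive expectation of each hybrid as a dashed line. miR-138 exceeds its line on PAA and not on PA, and miR-218a lies far under its line on both.

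The chip also holds probes for the same miRNAs named for other species, which allow the order of the arrays to be read a second time, although the levels of different probes cannot be set against each other. A probe that carries 9 names, human miR-219 among them, gave 4410 (PAA), 4785 (PA), 3721 (AA) and 2370 (PP) before scaling. A probe that carries 4 names, fly miR-219 among them, gave 4369, 4869, 3765 and 2577 on the same arrays. In both, PP was lowest, as for the zebrafish probe, but AA stood below PAA and PA, while the zebrafish miR-219 probe had AA above them. Before scaling, PA exceeded AA by 0.36 ± 0.07 with the human-named and 0.37 ± 0.09 with the fly-named probe, and was lower by a log2 difference of -0.86 ± 0.11 with the zebrafish probe. With quantile normalization over all detected probes of the chip these values were 0.29, 0.39 and -0.74. The position of miR-219 on AA therefore rested on which probe was read, whereas AA exceeded PP with all 3 probes, by 0.65 ± 0.09, 0.55 ± 0.09 and 1.40 ± 0.10 before scaling.

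A probe named for human and frog miR-129 was bright on each array, with 5744 (PAA), 4604 (PA), 4073 (AA) and 3273 (PP) before scaling and with 4 passing spots on each. PAA exceeded PP by 0.81 ± 0.23 and PA by 0.32 ± 0.28 there, and by 0.48 and 0.29 with quantile normalization over all probes. A probe that carries 17 names, human miR-218 among them, was dim, with 149 (PAA), 130 (PA), 144 (AA) and 121 (PP), above the BLANK level on PAA only, and the ranges of its spots overlapped between all 4 arrays. A probe that carries 6 names, mouse miR-138 among them, was not detected on PAA or AA, where 0 of its 4 spots passed. On each of PA and PP 2 of the 4 spots passed, with a signal of 303 on PA, above the BLANK level, and 432 on PP, below it. This probe was thus called detected on PA and not on PAA, whereas the zebrafish miR-138 probe was higher on PAA. With no value on PAA and 2 passing spots on PA, no order of the arrays was read from the mouse-named probe. Which of these sequences match the miRNAs of *Squalius* was not analysed here.

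**Figure D5:**
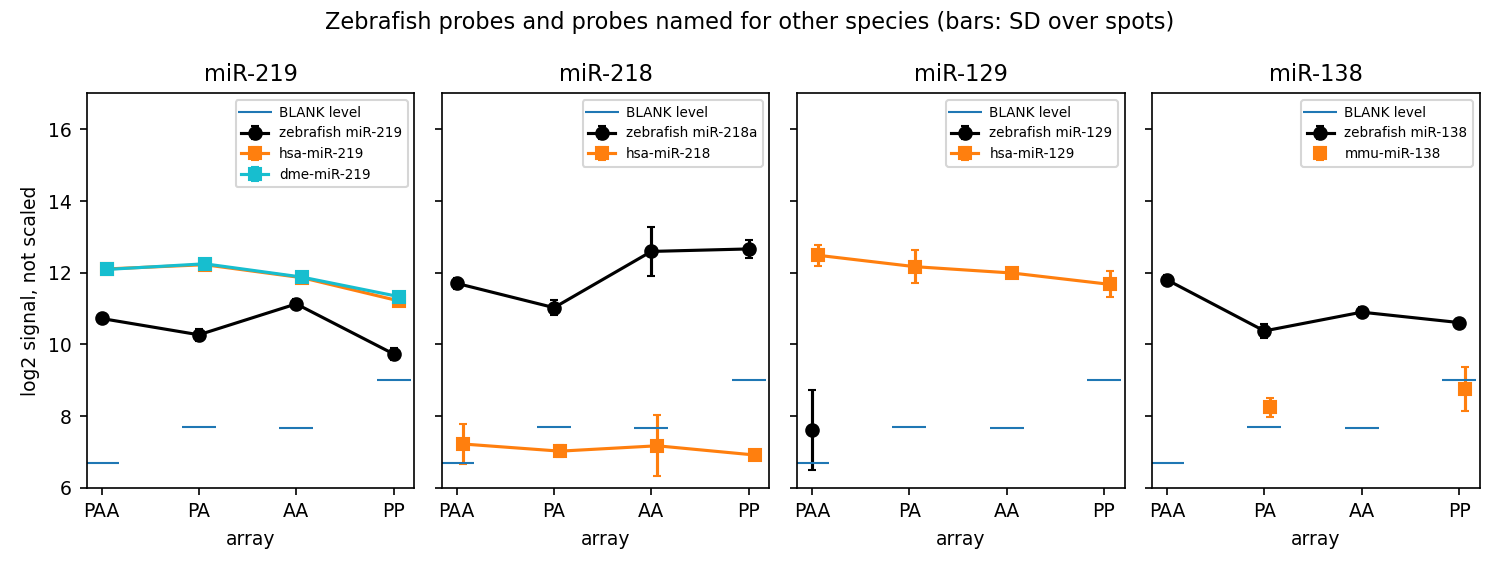
Log2 signal before scaling (points with SD over spots, lines join the arrays of a probe) of the zebrafish probes for miR-219, miR-218a, miR-129 and miR-138 and of probes named for other species, on PAA, PA, AA and PP, with the BLANK level of each array. The zebrafish miR-219 probe peaks on AA, the other miR-219 probes on PA, and levels are to be compared within a probe only.

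The other nervous-system probes were mostly dim. Only 5 of the 12 were above the BLANK level on PA, 3 on AA and 2 on PP, so many of the directions that follow were read against values not above that level. Of the 10 measured on both PAA and PA, 6 were higher on PAA and 4 lower after normalization. Their median was 0.17, where that over all zebrafish probes was 0.02. The highest was miR-153a at 1.02, whose signal of 126 on PA was below the BLANK level of 209. Between PAA and AA 9 of 10 were higher on PAA with a median of 0.17 (0.12 over all probes). There miR-9 stood at 1.27 and miR-153c, the lower one, at -0.62, and both were above the BLANK level on both arrays. Between PAA and PP 7 of 11 were higher with a median of 0.01 (0.09 over all probes). Between PA and AA 6 of 9 were lower on PA with a median of -0.12 (0.01 over all probes). Between PA and PP 5 of 10 were lower with a median of -0.04 (0.02). Between AA and PP 7 of 11 were lower on AA with a median of -0.11 (0.01), with miR-9 at -1.06 and miR-153c at 1.08. The shares of all zebrafish probes in each direction are not given here, so these counts are not read as a shift of the list. miR-338, an oligodendrocyte miRNA like miR-219, had a signal of 136 (PAA), 167 (PA), 123 (AA) and 275 (PP), above the BLANK level on PAA only, so its order over the arrays was not read.

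The members did not share one profile. The root mean square distance between centred log2 profiles over the 4 arrays was 0.42 for miR-132 and miR-138, 0.43 for miR-132 and miR-219, 0.57 for miR-138 and miR-219, 0.56 for miR-218a and miR-219, 0.73 for miR-138 and miR-218a, and 0.85 for miR-132 and miR-218a. Among the 114 probes detected on all arrays, the profiles most like that of miR-132 were those of miR-430b and miR-30c, at 0.08 and 0.10, where the median of all probes was 0.42. For miR-219 they were miR-461 and miR-15b, at 0.08 and 0.10, where the median was 0.43. For miR-138 they were miR-153a and miR-17a*, at 0.21 and 0.27, where the median was 0.62, and for miR-218a let-7g and miR-194b, at 0.33 and 0.36, where it was 0.67. All of these nearest probes except miR-461 were dim. miR-153a and miR-194b were above the BLANK level on PAA only. After normalization miR-17a* stood at 145 (PA) to 265 (PAA) and miR-15b at 140 (PA) to 208 (AA). miR-430b stood at 191 (PP) to 371 (PAA), miR-30c at 174 (PP) to 383 (PAA) and let-7g at 166 (PA) to 419 (PP). A likeness to such dim probes is not read as a shared profile. These distances describe 4 arrays only.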

How the data were processed

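The members and lists were chosen with earlier results of these data known. Cy3-labelled total RNA was hybridized to 4 arrays, and the deposited scanner files hold the foreground and background intensity of 5040 spots per array, with a spot uniformity score and a keep flag, which the authors' image software QuantArray wrote. The flag was read as 1 for kept and 0 for set aside. With that reading, the geometric mean of the foregrounds of kept spots yielded the deposited table of values within 0.1%. It was multiplied by 1 factor per array, 1 (PAA), 0.943 (PA), 1.18 (AA) and 0.963 (PP). That deposited table is on a linear intensity scale. The methods name background subtraction, a filter at 200% of background and normalization in BRB-ArrayTools. The match, however, used neither background subtraction nor a filter on dim spots. For miR-218b on PAA the deposited value was 224, where the background-subtracted signal was 129. The alternative with the authors' table therefore rests on foregrounds without these 2 steps.

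Background was subtracted, values were log2 means of passing spots, and arrays were quantile-normalized over zebrafish probes in Python 3.11.15, numpy 2.4.6 and pandas 2.3.3, checked against limma 3.58.1 in R 4.3.3 and tested on simulated data. Additivity used total-signal scaling. Described are all 6 members, other probes of the same number, star forms, 12 nervous-system, 4 liver and 6 muscle probes, and the 2 nearest profiles per member. Alternatives were normexp (offset 50), set-aside spots included, no filter on dim spots, at least 3 passing spots, spot medians, 5 scalings, the authors' table and, added after seeing the data, only the spots of subarray rows 1 to 3 or 4 to 6. With 1 array per composition no test was run, and precision is limited by that number of arrays. No genome was used.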

Additional observations from a re-analysis of the deposited data

Results flagged for a closer look

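Probes outside the zebrafish set gave signal above the BLANK level of the array. The probe named for fly miR-219 gave 4369 (PAA), 4869 (PA), 3765 (AA) and 2577 (PP), and that named for human miR-219 gave 4410, 4785, 3721 and 2370 on the same arrays. The probe named for human miR-129 gave 5744 (PAA), 4604 (PA), 4073 (AA) and 3273 (PP). The probe named for human miR-218 was above that level on PAA only, with 149, and the one named for mouse miR-138 on PA only, with 303.

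Among spots of the members that the image analysis had set aside, 5 spots exceeded the BLANK level. They were a miR-129 spot of 854 on PAA, 1233 on PA and 868 on PP, all the last printed spot of that probe, and miR-218b spots of 1725 on PA and 674 on PP. With set-aside spots included, PAA was lower than PA by a log2 difference of -0.96 for miR-218b, against -0.09 without them.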

How the results depend on the processing

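No result beyond 2-fold changed its direction under an alternative, and 23 of 35 differences and additive ratios kept their sign under all that were run. With no filter on dim spots, 2 members were beyond 2-fold in PAA against PA, and 2 in PA against AA. The member added in both was miR-129, of which no spot on PA passed that filter. In PAA against AA the count was 0 with no scaling, total-signal scaling, quantile normalization over all probes or rows 1 to 3 only. Median scaling gave 2, miR-218a and miR-219. With Homo scaling or the authors' table the count stayed 1, but the member was miR-218a and not miR-138. In PAA against PP it was 1 with no scaling, median or Homo scaling, or quantile normalization over all probes, and 3 with rows 1 to 3 only or rows 4 to 6 only. A count of 2 there did not always mean miR-132 and miR-138, as it was miR-138 and miR-218a with total-signal scaling and miR-138 and miR-219 with the authors' table. In PA against AA it was 3 with median scaling, 2 with the authors' table or rows 1 to 3 only, and 0 with rows 4 to 6 only, where PA against PP gave 2. In AA against PP it was 1, miR-219, with set-aside spots included, no scaling, median, total-signal or Homo scaling, the authors' table, or rows 1 to 3 only or rows 4 to 6 only. Above the additive expectation on PAA was 1 member with median or Homo scaling. It was 3 there with no filter on dim spots (of 5), set-aside spots included (of 6) or the authors' table (of 6), with miR-129 added. On PA the count was 2 with set-aside spots included and 0 with median scaling or the authors' table. The shares of all zebrafish probes under each alternative are not given here, so these counts are not read as results about the members. The cause of these changes was not tested. Median scaling moved the median of all probes to -0.35 in PAA against AA and Homo scaling moved it to -0.43 in PAA against PA. No paired analysis was possible because each composition had 1 array. Signals of miR-218b and miR-129 near the BLANK level limit what can be said of them.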

Other observations

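The star forms, which come from the opposite arm of the hairpin, were dim. The miR-132* probe was detected on PA only, with a signal of 203 from 2 spots of 144 and 285, which did not exceed the BLANK level. The miR-129 probe for that arm gave 136 on PAA, 146 on PA and 112 on AA, was above the BLANK level on PAA only, and had 1 kept spot on PP, of 115.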
